A study of Mus musculus with 16 samples.

Results

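The genes that mark the blood vessel lining of pancreatic islets were followed in cultures of dispersed mouse islet cells, together with Vegfa, the signal by which beta cells keep those vessels. The 10 genes were taken by symbol from the 25105 genes of the deposited matrix. They were 9 endothelial genes (Pecam1, Cdh5, Esam, Kdr, Flt1, Tek, Eng, Plvap and Emcn) and Vegfa, and each symbol matched 1 gene. Every culture came from adult mice with both Hspa5 (Grp78) alleles floxed and with no Cre of their own, so recombination depended on an adenovirus that can enter any cell type in the dish. Dispersed cells of 4 islet preparations (2 from female and 2 from male mice, called F1, F2, M1 and M2) were each split into 4 conditions: adenovirus carrying LacZ with the solvent DMSO (Ad-LacZ + DMSO), adenovirus carrying Cre with DMSO (Ad-Cre + DMSO), and the same 2 viruses with the pan-JNK inhibitor JNK-IN-8 (Ad-LacZ + JNK Inh and Ad-Cre + JNK Inh). All 16 cultures were kept in 15 mM glucose for 72 hours, with the inhibitor present from the start. The labels give 2 animal numbers for each preparation, and the methods describe 4 mice. Whether a library pools more than 1 animal is therefore not known. Tests without a block measured differences against the spread between preparations, and those with the preparation as a block against the spread of the differences within preparations.

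Islets are among the most densely perfused tissues, and their capillaries are fenestrated. Beta cells secrete VEGF-A, which binds the receptor tyrosine kinases VEGFR2 (Kdr) and VEGFR1 (Flt1) on endothelial cells, and mouse islets without it lose capillaries and fenestrae. Endothelial cells in turn lay down the basement membrane on which beta cells rest. Once islets are taken out of the animal the vessels are no longer perfused, and the endothelial cells are usually lost within days of culture. In a bulk library, fewer cells of a type and less RNA per cell cannot be told apart.

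RPKM (reads per kilobase of gene, scaled to a fixed number of reads) allows for gene length and depth. Its sum still ranged from 290885 to 368719 between libraries, and values were scaled again before the main tests. The RPKM printed are as deposited. The estimated depth was 7.7 to 25.5 M (mega) reads per library, with 7.7 M in Ad-Cre + JNK Inh F2, the 1 library from another sequencing lane. Hspa5, the floxed gene, averaged 438 ± 49.0 RPKM in Ad-LacZ + DMSO and 1264 ± 231 in the libraries labelled Ad-Cre + DMSO (n = 4 each, SD), which was higher by 1.54 on the log2 scale (SE 0.19, limma adjusted p = 0.00234). This goes against the label of a knockdown. A value per gene cannot tell deleted exons from retained ones. By qPCR on parallel aliquots the paper reports the knockdown of Grp78, with Grp94 and Calr increased. It also reports a partial reduction of GRP78 protein by immunoblot of cultures treated in the same way. Those checks are not analysed here. Each direction below is that of the libraries so labelled. The insulin-producing identity of the cultures was plain, since 11 beta cell markers summed to 33369 to 85019 RPKM in every library. Preparation M2 stood apart from the other 3 in many genes, and its part in a result is given as the value without it.

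Promoter sequence was read for the members, most of which had their highest mean in preparation M2. The RefSeq table (GRCm38.p6) held 6 of the 10 genes, namely Kdr, Flt1, Tek, Eng, Emcn and Vegfa; Pecam1, Cdh5, Esam and Plvap were not in it. Below are the 250 bases before the annotated start of Eng and Emcn, the 2 matched endothelial genes called between preparations, of the VEGF-A receptor gene with more motif matches, and of the ligand gene. Capitals mark GGAAG or its reverse complement, a form of the core bound by ETS factors. That family includes the endothelial regulators Erg and Fli1. Other forms of the core were not searched.
Eng: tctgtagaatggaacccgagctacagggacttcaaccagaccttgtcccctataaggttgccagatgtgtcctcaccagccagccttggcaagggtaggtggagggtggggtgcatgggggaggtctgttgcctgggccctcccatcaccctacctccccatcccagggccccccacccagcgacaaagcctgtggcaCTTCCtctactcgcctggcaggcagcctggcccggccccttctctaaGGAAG
Emcn: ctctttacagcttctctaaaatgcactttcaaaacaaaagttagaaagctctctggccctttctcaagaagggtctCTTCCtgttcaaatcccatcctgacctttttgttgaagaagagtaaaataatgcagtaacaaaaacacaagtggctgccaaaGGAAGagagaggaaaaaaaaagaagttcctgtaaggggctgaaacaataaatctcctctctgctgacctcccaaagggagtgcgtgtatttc
Flt1: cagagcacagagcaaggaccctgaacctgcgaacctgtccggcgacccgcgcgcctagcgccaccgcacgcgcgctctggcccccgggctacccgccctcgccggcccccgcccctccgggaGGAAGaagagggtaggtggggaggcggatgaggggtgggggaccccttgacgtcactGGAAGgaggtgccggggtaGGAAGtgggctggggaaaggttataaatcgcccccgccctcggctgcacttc
Vegfa: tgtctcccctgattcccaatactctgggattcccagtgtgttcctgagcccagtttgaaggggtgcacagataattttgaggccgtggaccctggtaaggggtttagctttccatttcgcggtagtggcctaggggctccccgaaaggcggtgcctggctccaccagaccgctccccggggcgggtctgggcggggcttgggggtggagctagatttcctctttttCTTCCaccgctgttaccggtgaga
These windows are chr2:32646345-32646594 (plus strand) for Eng, chr3:137340828-137341077 (plus strand) for Emcn, chr5:147726012-147726261 (minus strand) for Flt1 and chr17:46032378-46032627 (minus strand) for Vegfa. Vegfa had a second window in the table, at chr17:46025164-46025413 (minus strand), which lies inside the annotated gene (chr17:46016993-46032369) and is not printed. GGAAG occurred in 6 of the 7 windows of the members, and in 64.1% of all 32851 windows of this length in the table. In the first window of each gene Flt1 held 3 copies, Eng and Emcn 2 each, Kdr and Vegfa 1 each and Tek none. ACGTG, a form of the hypoxia response core, was searched on both strands. It occurred in 1 of 7 member windows, beside 16.6% of all windows. That 1 was the second window of Vegfa, inside the gene, and 0 of the 6 first windows held ACGTG. Other forms of that core were not searched. The AP-1 site TGANTCA occurred in 0 of 7, beside 6.7%. These are matches of letters in a short window and say nothing of binding.

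All 10 genes were detected in every library, at very different levels. Over the 16 libraries Vegfa averaged 62.6 ± 15.6 RPKM (SD, n = 16), above 97.4% of genes. Eng, which encodes the TGF-beta co-receptor endoglin, was the most abundant endothelial gene at 16.2 ± 7.09 RPKM, and Plvap, which encodes the protein of the diaphragms that span endothelial fenestrae, came next at 9.68 ± 5.14. A middle group followed, with Cdh5 (VE-cadherin of adherens junctions) at 5.69 ± 3.77, Emcn (the sialomucin endomucin) at 4.77 ± 3.18, Pecam1 (the junction protein CD31) at 4.39 ± 2.22, Kdr at 3.88 ± 1.51 and Esam (an adhesion molecule of tight junctions) at 3.13 ± 1.2 RPKM. Neighbours within this middle group lay closer to each other than their SD. Flt1 stood at 1.22 ± 0.38 RPKM (SD) and Tek, the receptor of the angiopoietins, at 0.52 ± 0.34. The estimated reads behind these values ranged from 16 to 148 for Tek and from 437 to 3444 for Eng, so that counting error was largest for Tek.

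**Figure D1:**
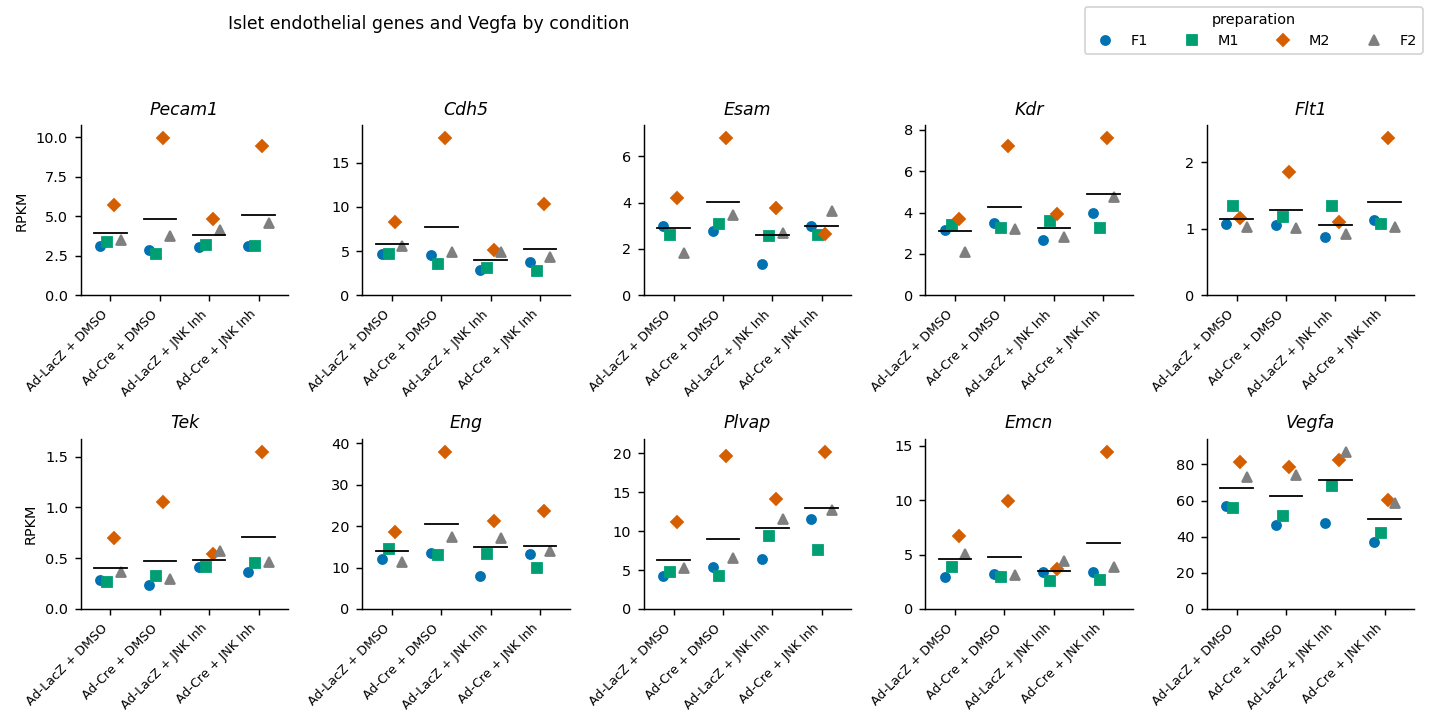
RPKM (vertical axes, from 0) of each of the 10 genes in the 4 conditions, with 1 point per library coloured by preparation and a black line at the mean of 4. Preparation M2 lies above the other 3 in most panels, most clearly in Ad-Cre + DMSO, and Plvap is the gene whose points lie higher with the inhibitor under both viruses.

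Of Of a further 34 endothelial genes, all were in the matrix and 15 had a mean above 1 RPKM. The highest were Tm4sf1 at 6.76, Cd93 at 5.89, S1pr1 at 5.16 and Ecscr at 4.94 RPKM. Several genes that define the lineage were far lower, with Tie1 at 0.69, Nos3 at 0.31, Vwf at 0.22 and Cldn5 at 0.18 RPKM over the 16 libraries. An endothelial RNA contribution was thus measurable, but it was small beside that of beta cell transcripts.

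The first comparisons asked whether the members differed between the libraries labelled Ad-Cre and Ad-LacZ. A gene entered a test when it exceeded 1 RPKM in at least 4 of the 8 libraries compared. This held for 9 of the 10 members in each comparison and not for Tek. Without inhibitor, limma called 0 of the 9 at a Benjamini-Hochberg adjusted p under 0.05, beside 15.9% of all 11590 genes tested. It also placed 0 of 9 at an unadjusted p under 0.05, where 1817 of all genes were higher and 1969 lower at that p. Past the criterion of the study (unadjusted p under 0.05 with a fold change above 1.5) were 0 of 9, beside 10.1% of genes. With the preparation as a block, 4 of 9 had an unadjusted p under 0.05 (Esam, Kdr, Eng and Plvap), where 2831 of the 11590 genes were higher and 2693 lower at that p. Of the 9, 0 passed the adjusted threshold, beside 34.6% of genes. Under the inhibitor, 0 of 9 were called in Ad-Cre against Ad-LacZ, beside 19.7% of genes. There 1 (Kdr) had an unadjusted p under 0.05, where 2050 of 11598 genes were higher and 2068 lower at that p. Of the 9, 0 met the criterion of the study, beside 17.9%, and 0 were called with the preparation as a block, beside 24.2%. With that block 3 had an unadjusted p under 0.05, where 2341 of all genes were higher and 2284 lower at that p. The median log2 fold change of the 9 was 0.15 (-0.09 to 0.41) without inhibitor and 0.35 (-0.35 to 0.56) under it, where all genes tested had medians of 0.01 and -0.01. Without M2 the values without inhibitor ran from -0.24 (Emcn) to 0.27 (Esam). Cdh5, Emcn, Flt1, Pecam1 and Vegfa were then below 0 and Eng, Esam, Kdr and Plvap above it. Under the inhibitor the scaled rise was largest in M2 for Pecam1, Cdh5, Kdr, Flt1 and Emcn, and in F1 for Esam, Eng and Plvap.

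The inhibitor comparisons were different in kind, because few genes of any sort were called. In Ad-LacZ, limma called 0 of 9 members at an adjusted p under 0.05, beside 0.18% of genes, and 2 of 9 (Plvap, higher, and Cdh5, lower) met the criterion of the study for the inhibitor (unadjusted p under 0.05 with a fold change above 1.2), beside 4.68%. With the preparation as a block 0 of 9 were called, beside 0.403%. There 2 had an unadjusted p under 0.05, where 787 of 11657 genes were higher and 697 lower at that p. In Ad-Cre, 0 of 9 were called, beside 0.0174% of genes, and 0 met the criterion of the study, beside 7.74%. An unadjusted p under 0.05 was reached by 0 of 9, where 601 of 11503 genes were higher and 327 lower at that p. With the preparation as a block 1 of 9 (Plvap) was called in Ad-Cre, beside 6.41% of genes. There 5 had an unadjusted p under 0.05, where 1631 of all genes were higher and 1384 lower at that p. The interaction of virus and inhibitor called 0 of 9 members and 0% of 12274 genes, and 0 of the 9 had an unadjusted p under 0.05 in limma without the block. With the preparation as a block 0 of 9 were called and 1 (Vegfa) had an unadjusted p under 0.05 in limma. The matching share of all genes is not given here.

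**Figure D2:**
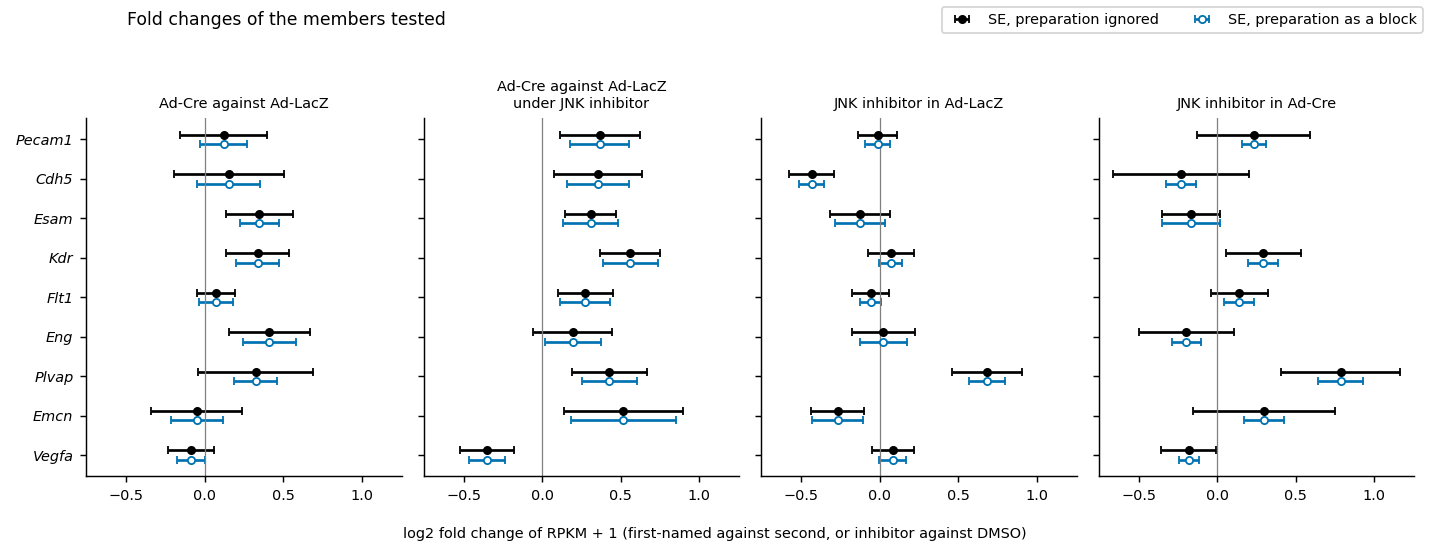
Log2 fold change on the RPKM + 1 scale (horizontal axis) of the 9 members tested, in the 4 comparisons, with bars of 1 SE from limma without (black) and with (blue) the preparation as a block. Plvap lies furthest to the right in both inhibitor panels, and Vegfa lies left of 0 in both panels of Ad-Cre against Ad-LacZ.

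Plvap rose with the JNK inhibitor when parallel cultures were compared. The gene (chr8:71497765-71511752, minus strand, GRCm38) had 4.21, 4.71, 11.1 and 5.21 RPKM in the Ad-LacZ + DMSO libraries F1, M1, M2 and F2, and 6.39, 9.41, 14.2 and 11.5 in Ad-LacZ + JNK Inh. In Ad-Cre + DMSO it had 5.40, 4.29, 19.7 and 6.54 RPKM, and in Ad-Cre + JNK Inh 11.6, 7.61, 20.2 and 12.8. Each of the 8 cultures with inhibitor was above its parallel culture without it, although the groups overlapped because M2 was high throughout.

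The group means of Plvap were 6.31 ± 3.23 in Ad-LacZ + DMSO and 10.4 ± 3.30 RPKM with the inhibitor (n = 4 each, SD), a log2 fold change of 0.68 (SE 0.22, limma unadjusted p = 0.0134, adjusted p = 0.567). Under Ad-Cre they were 8.98 ± 7.21 and 13.0 ± 5.25 RPKM, a log2 fold change of 0.79 (SE 0.38, limma adjusted p = 0.651). With the preparation as a block the SE fell to 0.14 in Ad-Cre and the limma adjusted p was 0.0343, and in Ad-LacZ it was 0.0878. Exact two-sided permutation tests of 4 against 4, which ignore the pairing, gave p = 0.0571 in Ad-LacZ and 0.114 in Ad-Cre, where the smallest possible is 0.0286. A difference of the rise between the viruses was not detectable (interaction 0.10, SE 0.47, limma adjusted p = 1).

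A fit over both viruses with the preparation as a block, added after these values were seen, gave Plvap a log2 fold change of 0.73 (SE 0.12, limma adjusted p = 0.0051). It was the 1 of 9 members called there, beside 4.76% of 12274 genes. Without preparation M2 the log2 fold change was 0.88 (limma adjusted p = 0.00167). Leaving out F1 or F2 took the adjusted p to 0.0561 and 0.0586. The fold of inhibitor over DMSO in RPKM was 1.02 in M2 under Ad-Cre, the lowest of the 8 pairs, and 2.21 in F2 under Ad-LacZ, the highest, with a median of 1.86.

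Plvap also took a larger share of the endothelial signal with the inhibitor, a ratio that does not depend on how a library is scaled. It made up 12.2% to 18.5% of the summed RPKM of the 9 endothelial genes in the 8 DMSO libraries and 21.9% to 26.6% in the 8 inhibitor libraries, which do not overlap. Cdh5 moved the other way, from 10.4% to 15.9% down to 7.78% to 11.2%, and was lower in 8 of 8 pairs. The DMSO and inhibitor shares of the other endothelial genes, Cdh5 among them, overlapped. Plvap counts in the sum, so a rise of Plvap alone lowers the shares of the others. How often shares of other genes or lists separate in this way is not given here. A ratio of this kind shows unequal change among the 9 genes and no more.

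**Figure D3:**
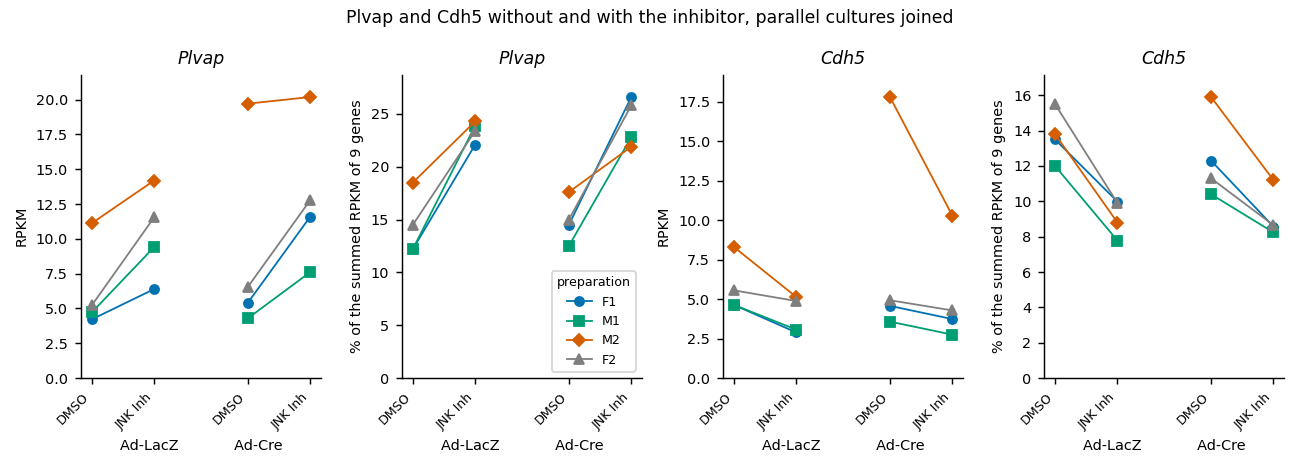
RPKM and share of the summed RPKM of the 9 endothelial genes (vertical axes, from 0) for Plvap and Cdh5, with lines joining the cultures of 1 preparation without and with the inhibitor under each virus. All 8 Plvap lines go up and all 8 Cdh5 lines go down, and the shares of Plvap separate completely at 18.5% and 21.9%.

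Cdh5 (chr8:104101625-104144511, plus strand) was lower with the inhibitor in all 8 pairs, but it was not called. It had 4.63, 4.63, 8.30 and 5.55 RPKM in the Ad-LacZ + DMSO libraries F1, M1, M2 and F2 and 2.89, 3.06, 5.13 and 4.88 with the inhibitor. These 2 groups overlapped in RPKM and did not overlap after scaling between libraries. The exact two-sided permutation p was 0.0286, the smallest possible, which any 2 groups of 4 without overlap give. The share of all genes that separate in this way is not given here. The log2 fold change was -0.43 (SE 0.14, limma unadjusted p = 0.014, adjusted p = 0.574, and 0.117 under the block). Under Ad-Cre the values went from 4.57, 3.57, 17.8 and 4.93 RPKM to 3.73, 2.75, 10.3 and 4.28, a log2 fold change of -0.23 (SE 0.43, limma adjusted p = 0.953, and 0.189 with the block). Over both viruses, in the fit added later, it was -0.33 (SE 0.14, limma adjusted p = 0.213).

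The other junction genes gave no common direction with the inhibitor. Pecam1 (chr11:106654217-106750628, minus strand) averaged 3.91 ± 1.19 RPKM in Ad-LacZ + DMSO and 3.79 ± 0.84 with the inhibitor, and 4.79 ± 3.46 and 5.06 ± 3.00 under Ad-Cre (SD, n = 4 each). Esam (chr9:37528078-37538319, plus strand) averaged 2.90 ± 0.99 and 2.60 ± 0.98 under Ad-LacZ, and 4.03 ± 1.86 and 2.98 ± 0.49 under Ad-Cre. The single Pecam1 libraries F1, M1, M2 and F2 had 3.12, 3.35, 5.68 and 3.47 RPKM in Ad-LacZ + DMSO, 2.87, 2.63, 9.94 and 3.72 in Ad-Cre + DMSO, 3.02, 3.19, 4.83 and 4.14 in Ad-LacZ + JNK Inh and 3.08, 3.11, 9.44 and 4.59 in Ad-Cre + JNK Inh. M2 was highest in each condition and the conditions overlapped. Esam in the same order had 2.98, 2.60, 4.2 and 1.83 RPKM, then 2.79, 3.09, 6.80 and 3.46, then 1.37, 2.57, 3.76 and 2.70, and last 3.01, 2.59, 2.66 and 3.66, where F2 and not M2 was highest. The log2 fold changes of both genes with the inhibitor lay between -0.17 and 0.23, with limma adjusted p of 0.885 or more. The difference between viruses was likewise within the spread for Pecam1 (log2 fold change 0.12, SE 0.28) and Esam (0.35, SE 0.21).

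Among the receptor genes, Kdr had the largest difference between viruses under the inhibitor, and Eng (log2 fold change 0.41, SE 0.26, limma adjusted p = 0.302) the largest without it. Kdr (chr5:75932827-75978458, minus strand) had 2.66, 3.59, 3.91 and 2.84 RPKM in the Ad-LacZ + JNK Inh libraries F1, M1, M2 and F2, and 4.00, 3.25, 7.61 and 4.77 in Ad-Cre + JNK Inh. It was higher in Ad-Cre in 4 of 4 preparations after scaling, by 0.01 in M1 to 1.01 in M2 on the log2 scale. In RPKM the M1 pair went the other way and the groups overlapped. After scaling they did not overlap, and the share of all genes that separate in this way is not given here. The log2 fold change was 0.56 (SE 0.19, exact two-sided permutation p = 0.0286, limma adjusted p = 0.067, and 0.0616 with the block). With quantile normalization in place of TMM the limma adjusted p was 0.0499. Without M2 the log2 fold change was 0.41 (SE 0.16, limma adjusted p = 0.0772). Without inhibitor Kdr had 3.14, 3.39, 3.70 and 2.11 RPKM in Ad-LacZ + DMSO and 3.5, 3.24, 7.23 and 3.19 in Ad-Cre + DMSO, a log2 fold change of 0.34 (SE 0.20, limma adjusted p = 0.28). Those groups overlapped, and the library that stood highest was again M2.

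Flt1, Tek and Eng showed no change with virus or inhibitor that passed a test. Flt1 (chr5:147561604-147726011, minus strand), whose product binds VEGF-A tightly but signals weakly, had group means between 1.06 and 1.40 RPKM, and 15 of its 16 libraries lay between 0.88 and 1.86, with 2.36 in Ad-Cre + JNK Inh M2. Tek (chr4:94739289-94874976, plus strand) had group means of 0.40, 0.48, 0.48 and 0.71 RPKM in Ad-LacZ + DMSO, Ad-Cre + DMSO, Ad-LacZ + JNK Inh and Ad-Cre + JNK Inh. It was higher with the inhibitor in 7 of 8 pairs, but with the lower filter of 0.1 RPKM that admits it the fit over both viruses gave a limma adjusted p of 0.202. Eng (chr2:32646595-32682669, plus strand) had group means of 14.1 ± 3.30, 20.5 ± 11.8, 14.9 ± 5.68 and 15.2 ± 5.88 RPKM in the same order, where the second mean rests on 38.0 RPKM in M2 beside 13.0 to 17.4 in the other 3. Without M2 the Eng means were 12.6, 14.7, 12.8 and 12.4 RPKM. Emcn (chr3:137341067-137432185, plus strand) had 4.64 ± 1.64, 4.79 ± 3.42, 3.54 ± 0.75 and 6.09 ± 5.6 RPKM (SD, n = 4 each), and its SD under Ad-Cre was again that of M2, at 9.93 and 14.5 RPKM. Without M2 the Emcn means were 3.94, 3.08, 3.48 and 3.31 RPKM.

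After scaling Vegfa was lower in Ad-Cre than in Ad-LacZ in every pair of parallel cultures, but it was not called. The gene (chr17:46016993-46032369, minus strand) had 57.1, 56.1, 81.3 and 73.0 RPKM in the Ad-LacZ + DMSO libraries F1, M1, M2 and F2, and 46.6, 51.3, 78.9 and 74.3 in Ad-Cre + DMSO. In RPKM the F2 pair went the other way. After scaling Vegfa was lower in 4 of 4 pairs, by 0.01 (F2) to 0.23 (F1) on the log2 scale, and the groups overlapped. The log2 fold change was -0.09 (SE 0.14, limma adjusted p = 0.708).

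With the inhibitor the Vegfa values were 47.7, 68.0, 82.6 and 87.0 RPKM in Ad-LacZ and 36.9, 42.3, 60.5 and 58.6 in Ad-Cre. Means of 71.3 ± 17.7 and 49.6 ± 11.7 RPKM (SD, n = 4) gave a log2 fold change of -0.35 (SE 0.17, limma adjusted p = 0.177, and 0.0671 with the block). It was lower in 4 of 4 pairs, with p = 0.0857 in the exact two-sided permutation test. The value depended on the scaling and was -0.63 (limma adjusted p = 0.0826) with quantile normalization. In Ad-Cre the inhibitor libraries had less Vegfa than the DMSO libraries in 4 of 4 pairs (log2 fold change -0.18, SE 0.18, limma adjusted p = 0.865, and 0.145 with the block). In Ad-LacZ they had more in 3 of 4 (0.08, SE 0.13, limma adjusted p = 0.999). The interaction was -0.26 (SE 0.22, limma adjusted p = 1, and 0.377 with the block).

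Preparation M2 held more endothelial RNA than the others. The sum of the 9 endothelial genes was 80.7 ± 26.1 RPKM (SD, n = 4) in M2. It was 36 ± 6.11 in F1 and 36.4 ± 3.06 in M1, and F2 had 44.6 ± 6.37 RPKM. In RPKM the 4 libraries of M2, from 58.3 to 112, were all above the other 12, which reached 49.5. After scaling between libraries M2 and the rest overlapped, with 50.3 in Ad-LacZ + JNK Inh M2 and 50.6 in Ad-Cre + JNK Inh F2. The share of all genes that separate in RPKM in this way is not given here. In RPKM the sum in M2 was 2.07 times the mean of those 12, and the single genes were 1.49 (Flt1) to 2.59 (Tek) times as high. Of the 8 endothelial members above the low filter, 8 had their highest mean in M2, beside 23.8% of all 12274 genes.

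Differences between preparations, tested in limma with an F-test beside the 4 conditions over all 16 libraries, were called for 6 of 9 members, beside 37.9% of genes. That test sets preparations against parallel cultures of the same cells, with 1 preparation at each level, so its count cannot be ranked against the treatment counts. The genes called were Plvap (adjusted p = 0.0028), Vegfa (0.00306), Pecam1 (0.00568), Cdh5 (0.00716), Eng (0.0138) and Emcn (0.0439), all in limma. Kdr (0.0603), Flt1 (0.222) and Esam (0.298) did not pass, and Tek had 0.0198 with the lower filter. Without M2 only Vegfa was called, so the 5 endothelial calls rested on that preparation. Vegfa followed another pattern (SD, n = 4 each): F1 and M1 were low with 47.1 ± 8.26 and 54.4 ± 10.7 RPKM, and M2 and F2 were higher with 75.8 ± 10.3 and 73.2 ± 11.6.

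Within M2 the 2 libraries labelled Ad-Cre held the most endothelial RNA, with 112 RPKM summed in Ad-Cre + DMSO and 92.1 in Ad-Cre + JNK Inh, against 60.2 and 58.3 in the matched Ad-LacZ libraries. In the other preparations the 4 conditions lay between 28.9 and 49.5 RPKM. The group means of the sum were accordingly 42.3 ± 12.1 (Ad-LacZ + DMSO), 56.8 ± 37.2 (Ad-Cre + DMSO), 44.0 ± 12.7 (Ad-LacZ + JNK Inh) and 54.6 ± 25.9 RPKM (Ad-Cre + JNK Inh). Without M2 they were 36.3 ± 2.13, 38.4 ± 4.84, 39.2 ± 10.2 and 42.1 ± 8.16 (SD, n = 3).

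The same preparation dominated the way the 9 genes varied together. Over 16 libraries the 36 pairwise Pearson correlations had a median of 0.692 (0.21 to 0.925), and over the 12 libraries without M2 a median of 0.126 (-0.638 to 0.757). Libraries of a preparation share their animals, and these values are descriptions. The genes most like the sum of the 9 over 16 libraries, among 12265 genes, were Rbpms2 (r = 0.941), S1pr1 (0.941), Fbxl7 (0.921), Unc5c (0.92), Akr1b8 (0.914), Pde3a (0.912), Jag1 (0.909) and Gas7 (0.907). S1pr1, the receptor by which sphingosine 1-phosphate steadies endothelial junctions, was also on the list of further endothelial genes, and Jag1 encodes a Notch ligand. Over the 12 libraries without M2 the r of these 8 genes fell to between 0.208 (Unc5c) and 0.735 (Fbxl7). Those most like Vegfa were Nrep (0.929), Acap2 (0.925), Zdhhc21 (0.923), Tardbp (0.922) and Atxn1 (0.918), with r of 0.92 to 0.964 without M2.

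Some marker lists of other cell types differed between preparations and others did not. Beside the 37.9% of all genes, limma called 9 of 9 fibroblast and stellate, 11 of 11 beta cell, 11 of 12 basement membrane, 7 of 9 mural, 13 of 16 VEGF pathway, 12 of 20 hypoxia response, 3 of 8 duct, 2 of 12 macrophage and 1 of 1 acinar genes. The further endothelial list summed to 92.9 ± 37.0 RPKM in M2 and 41.9 on average elsewhere, and 33 of its 34 genes were higher in M2. The 10 fibroblast and stellate cell markers (Col1a1, Dcn and the like) were 4.53 times as high in M2, at 426 against 94.1 RPKM. The 12 mural cell markers were 2.99 times as high (1220 against 407 RPKM), the 12 vascular basement membrane genes 2.78 times (631 against 227), the 12 macrophage markers 1.44 times (279 against 194) and the 10 duct markers 1.15 times (640 against 555). The 11 beta cell markers were 0.61 times as high (38816 against 63378 RPKM), and 0 of 11 had their highest mean in M2. The 10 acinar markers were nearly absent, at 8.84 against 3.34 RPKM. Every gene of these lists that the matrix holds was above 0 in at least 1 library. The part of the cell mixture in the results above was not tested.

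**Figure D4:**
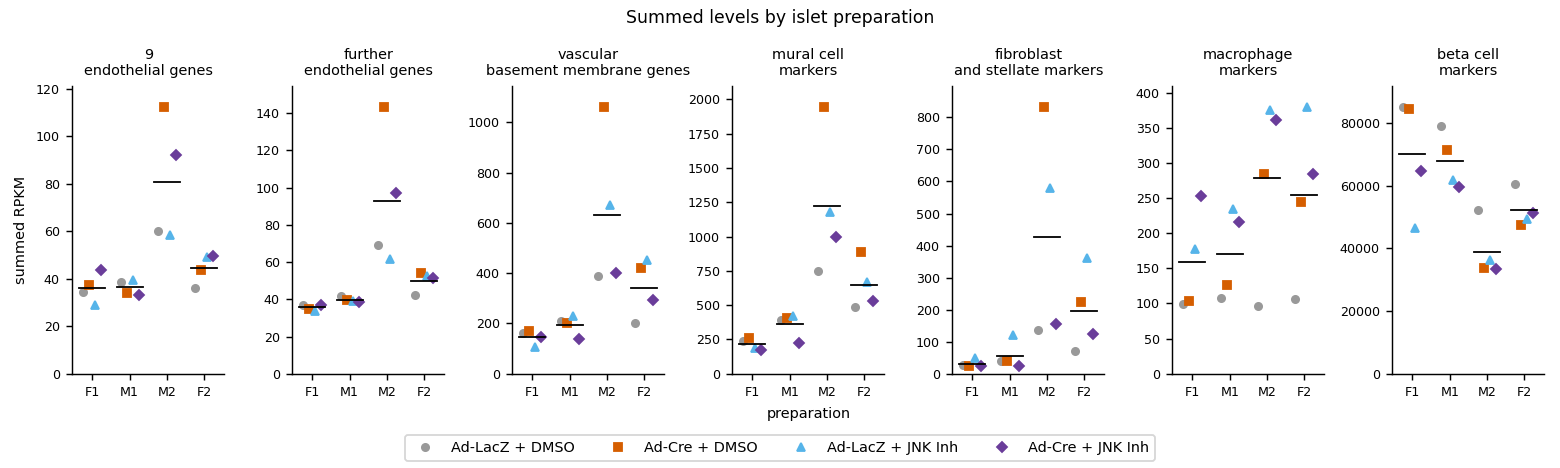
Summed RPKM (vertical axes, from 0, each list on its own scale) of the 9 endothelial genes and of 6 marker lists in the 4 preparations, with 1 point per library and a black line at the mean of 4. M2 is highest for the endothelial, basement membrane, mural and fibroblast lists and lowest for the beta cell markers.

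Treatment differences were also looked for in the further endothelial genes. Between 12 and 16 of the 34 were tested, and limma called 0 in each comparison of virus or inhibitor, with and without the preparation as a block, and 0 in the interaction. Their median log2 fold change was 0.27 in Ad-Cre against Ad-LacZ, where all genes tested had a median of 0.01, and 0.31 under the inhibitor, where all genes had -0.01. Without M2 these medians were 0.12 and 0.15. The median was -0.06 for the inhibitor in both Ad-LacZ and Ad-Cre. Between preparations 8 of 16 were called, beside the 37.9% of all genes.

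Of the 22 other ligands and co-receptors of the VEGF and angiopoietin pathways, Tie1 of which is also on the preceding list, 13 to 16 were tested. Apln, the peptide ligand that sprouting vessels use, rose in Ad-Cre against Ad-LacZ under the inhibitor, from 13.1 ± 3.14 to 19.9 ± 7.08 RPKM (SD, n = 4; log2 fold change 0.69, SE 0.21, limma adjusted p = 0.0478). Without M2 Apln had 0.60 (limma adjusted p = 0.0259). Its values were 11.3, 12.4, 17.7 and 10.9 RPKM in the Ad-LacZ libraries F1, M1, M2 and F2 and 17.4, 14.1, 30.2 and 18.0 in the Ad-Cre ones. It was the 1 gene of the list that passed without the block in any treatment comparison, 1 of 14 tested there, beside 19.7% of all genes.

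Other genes of the list passed only with the preparation as a block. Ang, which encodes the secreted ribonuclease angiogenin, rose with the inhibitor in Ad-Cre from 31.3 ± 5.36 to 62.8 ± 11.4 RPKM (SD, n = 4; log2 fold change 1.13, limma adjusted p = 0.215, and 0.0101 with the block). In Ad-LacZ it went from 29.4 ± 8.58 to 56.6 ± 3.19 RPKM, and the 2 groups did not overlap under either virus. The share of all genes that separate in this way is not given here. Over both viruses the log2 fold change was 1.05 (limma adjusted p = 0.000769), and Ang was the 1 of 16 called there, beside 4.76% of all genes. Ang shares its first exons with Rnase4, so that reads can be split between them. Vegfb (0.49 with the inhibitor in Ad-Cre, block adjusted p = 0.0301 in limma), Efnb2 and Angptl4 (0.51 and 0.48 in Ad-Cre against Ad-LacZ, block adjusted p = 0.029 and 0.0493 in limma) were the others. The block thus called 2 of 14 for the inhibitor in Ad-Cre, beside 6.41% of all genes, and 2 of 13 in Ad-Cre against Ad-LacZ, beside 34.6%. Angpt2, the ligand of Tek that destabilises vessels, had 9.30 ± 0.71, 11.1 ± 3.72, 8.89 ± 1.52 and 13.6 ± 7.76 RPKM in the 4 conditions in the order given above, while Angpt1, its stabilising counterpart, was at 0.05 RPKM or less on average.

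Hypoxia response genes, of which Vegfa is a classical target, were tested for 20 of 22. In Ad-Cre against Ad-LacZ, 2 rose and 1 fell, that is 3 of 20 beside 15.9% of all genes. Pgk1, a glycolytic enzyme, rose by 0.82 (SE 0.12, limma adjusted p = 0.00522), P4ha2, a collagen prolyl hydroxylase, by 0.54 (adjusted p = 0.0118), and Ankrd37 fell by 0.61 (adjusted p = 0.0388). With the block 7 rose and 2 fell, beside 34.6% of all genes. Without M2 and without the block, Pgk1 was the 1 gene still called (limma adjusted p = 0.0283). Under the inhibitor, where 19.7% of all genes were called, 4 rose (Pgk1 0.96, P4ha2 0.70, Higd1a 0.67 and Pdk1 0.53) and Ankrd37 fell by 0.50, with limma adjusted p from 0.00365 to 0.033. With the inhibitor 0 of 20 were called in either virus without the block. With it Pdk1 (fell by 0.49) and Pfkfb3 (fell by 0.38) were called in Ad-Cre, beside 6.41% of all genes. Over both viruses, in the fit added later, 3 of 20 fell, beside 4.76% of all genes. They were Pdk1 (by 0.65), Pfkfb3 (by 0.29) and Mxi1 (by 0.24), with limma adjusted p from 0.00227 to 0.0488. In Ad-Cre against Ad-LacZ 16 of the 20 had a higher mean, with a median log2 fold change of 0.38 (0.24 without M2). Vegfa, at -0.09, lay on the other side of 0.

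The vascular basement membrane list (Col4a1, the laminins, nidogens and perlecan) was tested for 11 of 12 genes. Of these 0 were called in any treatment comparison of limma without the block. With the block 1 of 11 was called in Ad-Cre against Ad-LacZ, beside 34.6% of all genes, namely Nid2 (rose by 0.69, limma adjusted p = 0.0302). For the inhibitor in Ad-Cre 1 of 11 was called, beside 6.41%, namely Nid1 (fell by 0.52, limma adjusted p = 0.04). The median of the list was 0.65 in Ad-Cre against Ad-LacZ, -0.51 for the inhibitor in Ad-Cre and 0.33 for the inhibitor in Ad-LacZ. Without M2 these were 0.34, -0.28 and 0.20.

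Markers of other cell types were followed in the same comparisons. In Ad-Cre against Ad-LacZ, 4 of 12 macrophage markers rose (C1qb 1.11, C1qc 0.92, Ctss 0.74 and Fcer1g 0.43, limma adjusted p from 0.0269 to 0.0481), beside 15.9% of all genes, and 9 of 12 with the block, beside 34.6%. Under the inhibitor 0 of 12 were called in that contrast and their median was 0.02. With the inhibitor in Ad-LacZ 4 of 12 rose (Cd68 1.21, Tyrobp 1.18, Lyz2 2.16 and Ctss 1.00, limma adjusted p from 0.015 to 0.0398), beside 0.18% of all genes. With the block Cd68 alone passed (limma adjusted p = 0.0377, against 0.0739 for Tyrobp, 0.0507 for Lyz2 and 0.0819 for Ctss), beside 0.403% of all genes. In Ad-Cre 0 of 12 were called with the inhibitor, and Lyz2 alone with the block (1.45, limma adjusted p = 0.0212), beside 6.41% of all genes. The fit over both viruses with the block, added later, called 4 of 12 as higher, beside 4.76% of all genes. They were Lyz2 (1.80), Ctss (0.74), C1qa (0.64) and Cd68 (0.83), with limma adjusted p from 0.000445 to 0.0361, and 11 of 12 were higher. In fits without M2 (n = 3 a group) and without the block, 0 macrophage markers were called. The log2 fold changes of the genes called with M2 were then 0.35 (Fcer1g) to 0.93 (C1qb) in Ad-Cre against Ad-LacZ. For the inhibitor in Ad-LacZ they were 0.83 (Ctss) to 1.87 (Lyz2), and 10 of 10 markers tested were higher. Blocked fits without M2 are not given.

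Summed macrophage markers were 103 ± 5.61 RPKM in Ad-LacZ + DMSO and 292 ± 102 in Ad-LacZ + JNK Inh, and 189 ± 88.4 and 279 ± 61.8 under Ad-Cre (SD, n = 4 each). The sum was thus higher on average with the inhibitor under each virus, as Plvap was, but abundant genes weigh most in it. Over the 12 genes the median log2 fold change with the inhibitor was 0.72 in Ad-LacZ, with 12 of 12 higher, and -0.04 in Ad-Cre, with 5 of 12 higher. The part of these cells in the Plvap result was not tested.

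Of the 11 beta cell markers 3 fell in Ad-Cre against Ad-LacZ (G6pc2, Ucn3 and Trpm5), beside 15.9% of all genes, and 8 with the block, beside 34.6%. Under the inhibitor 4 fell (G6pc2, Ucn3, Slc2a2 and Mafa), beside 19.7%, and with the block 8 fell and 1 (Ins2) rose, beside 24.2%. The inhibitor itself gave 0 beta cell calls in either virus alone, with and without the block. Over both viruses, in the fit added later, 1 of 11 was called, beside 4.76% of all genes. It was Ins1, which fell by 0.49 (SE 0.12, limma adjusted p = 0.0337). Mural cell markers had 0 of 8 called without the block in the treatment comparisons. With it Des and Myh11 rose in Ad-Cre against Ad-LacZ, beside 34.6% of all genes, and Des, Tagln and Acta2 fell with the inhibitor in Ad-Cre, beside 6.41%.

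Fibroblast and stellate markers had 0 called without the block. With it Col1a1 rose with the inhibitor in Ad-LacZ (1.78, limma adjusted p = 0.0404), beside 0.403% of all genes, and 8 of 9 fell in Ad-Cre against Ad-LacZ under the inhibitor, beside 24.2%. Duct markers had 2 of 6 called in Ad-Cre against Ad-LacZ (Krt18 and Krt8, both higher), beside 15.9%, and under the inhibitor Epcam and Krt18 rose and Spp1 fell, beside 19.7%. With the block 4 and 3 of the 6 duct genes were called in these contrasts, beside 34.6% and 24.2%. For the inhibitor 1 of 6 was called in Ad-Cre, beside 6.41%, and 1 of 7 in Ad-LacZ, beside 0.403%. Over both viruses, in the fit added later, 2 of 8 rose, beside 4.76%. They were Spp1 (1.37, limma adjusted p = 0.00292) and Krt18 (0.45, limma adjusted p = 0.0215). Acinar markers had 1 gene above the filter, Cela1, with 0 called without the block. With it Cela1 was called in both contrasts of the viruses, beside 34.6% and 24.2% of all genes.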

How the data were processed

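Poly(A) RNA of 16 cultures was sequenced as paired reads of 150 bases on an Illumina instrument. The authors aligned the reads to the mouse genome (GRCm38, per the labels) and counted genes, and the deposited values are RPKM per gene. The aligner settings, the annotation and the step to RPKM are not given in the sources used here. The matrix has 3 more numeric columns, which matched no label and were left out.

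RPKM are not counts. They were scaled by trimmed mean of M-values (TMM, unweighted, trimming 30% of ratios and 5% of levels), 1 was added, and the log2 values were fitted for genes that exceeded 1 RPKM in 4 or more of the libraries compared, with limma 3.58.1 (lmFit, eBayes with trend, R 4.3.3), with Benjamini-Hochberg adjustment over all genes tested. Fold changes are on the log2(RPKM + 1) scale, which understates those of low genes. The criterion of the study gives a p and a fold change, and its p was read as unadjusted. Each member was also put through a two-sided permutation test (exact). Comparisons that use the same control libraries are not independent.

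The labels number the preparations, and the methods describe parallel cultures of the same animals. Residuals of libraries of 1 preparation correlated (r = 0.131 to 0.827, all comparisons), so blocked values are printed beside the members' results and the counts of called list genes. Depth was estimated from low RPKM values times GENCODE M21 gene length, where 92.8% to 94.2% of values under 10 reads came out whole within 0.02 reads. Gene positions come from the same annotation. No count test was run. The fit was tested on simulated data.

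Members, lists and named genes were chosen with earlier results of these data known. The named genes were the 10 members, up to 4 called genes of each list and comparison with the smallest p, the 8 genes most like the summed endothelial level, the 5 most like Vegfa, and Hspa5. Further endothelial genes and Angpt1 and Angpt2 are named with values as levels only. Alternatives covered the scaling (unscaled RPKM or quantile normalization), the filter (none, or 0.1 RPKM), a pseudocount of 0.1, eBayes without trend, a joint fit of all 16 libraries, the block, leaving out the library of the other lane, and leaving out each preparation. The fit over both viruses, and list values and correlations without M2, were added after the data were seen.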

Additional observations from a re-analysis of the deposited data

Results flagged for a closer look

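In 12 of 40 groups of 4 libraries (10 genes in 4 conditions), 1 library lay further from the rest than Dixon's 95% critical value allows, where chance flags about 5% of groups. The library apart was that of preparation M2, and it was the highest, in all 12. In Ad-Cre + DMSO the gap divided by the range was 0.965 for Emcn (9.93 RPKM against 3.18 in the nearest library), 0.923 for Kdr (7.23 against 3.5), 0.905 for Cdh5 (17.8 against 4.93), 0.899 for Tek (1.05 against 0.32), 0.854 for Plvap (19.7 against 6.54), 0.851 for Pecam1 (9.94 against 3.72) and 0.832 for Esam (6.80 against 3.46). In Ad-Cre + JNK Inh it was 0.917 for Flt1 (2.36 RPKM against 1.14), 0.913 for Tek (1.55 against 0.47) and 0.894 for Emcn (14.5 against 3.90). In Ad-LacZ + DMSO it was 0.861 for Pecam1 (5.68 RPKM against 3.47) and 0.855 for Plvap (11.1 against 5.21). The 4 conditions of a preparation come from the same animals, so these are not 12 separate events.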

How the results depend on the processing

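Of 762 results recomputed under an alternative, 734 kept their direction and their side of the threshold. With the preparation as a block, alone or with the lower filter and pseudocount, the members called for the inhibitor in Ad-Cre went from 0 to 1 (Plvap), and the block changed no other call of a member in the 4 comparisons. Quantile normalization took Ad-Cre against Ad-LacZ under the inhibitor from 0 to 1 (Kdr). Leaving out replicates, differences between preparations called 1 to 6 members (1 without M2), and the fit over both viruses 0 to 1 (0 without F1 or F2). That fit called 0 without the block. The cause of these changes was not tested.

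Directions that turned belonged to small, uncalled values. With 1 preparation left out, the log2 fold changes in Ad-Cre against Ad-LacZ ranged from -0.24 to 0.13 for Emcn, -0.14 to 0.29 for Cdh5, -0.0284 to 0.13 for Flt1 and -0.0762 to 0.24 for Pecam1. For the inhibitor they ranged from -0.28 to 0.0755 for Esam in Ad-Cre, and in Ad-LacZ from -0.27 to 0.053 for Esam, -0.052 to 0.0443 for Pecam1 and -0.12 to 0.17 for Eng. In the interaction they ranged from -0.00927 to 0.16 for Plvap, with -0.0318 from RPKM as deposited, and -0.33 to 0.20 for Esam, with 0.041 from quantile normalization. RPKM as deposited shifted the median of all genes by -0.14 for the inhibitor in Ad-Cre and for Ad-Cre against Ad-LacZ under the inhibitor.

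With 4 libraries a group, the differences of Vegfa and Kdr under the inhibitor, which went 1 way in 4 of 4 preparations after scaling, missed the adjusted threshold with TMM scaling, with and without the block. Depth limited Tek most, with as few as 16 estimated reads in a library. RPKM carry no counting error into the fit. The library of lowest depth came from another lane, so lane and library cannot be told apart.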
